A study of Mus musculus with 6 samples.

Results

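The glutathione, glucuronide and sulfate conjugation enzymes of the mouse kidney were compared between control mice and mice with DKD, diabetic kidney disease. Members were the genes whose symbols name a cytosolic glutathione S-transferase (GST), a microsomal glutathione S-transferase (MGST), a UDP-glycosyltransferase of families 1 to 3 (UGT) or a cytosolic sulfotransferase (SULT), with at least 60 reads summed over all libraries. That gave 51 of the 55401 gene IDs in the table: 21 GST, 3 MGST, 18 UGT and 9 SULT genes. Of 67 IDs with such a symbol, 16 fell under the minimum and 12 of those had no read at all. Just inside the minimum were Sult6b1 with 91 reads and Mgst2 with 116, and just outside it were Sult2a3 with 52 and Sult6b2 with 42.

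Poly(A) RNA of whole kidneys was sequenced in 3 control and 3 DKD libraries, and each label gives only the group (control or DKD, under the heading genotype) and a replicate number. The labels do not give the strain, age, sex or the way in which diabetes was brought about, and do not say that each library is a separate animal, so p-values measure the spread between these libraries and part of it may be technical. Libraries held 64816622 to 77417638 counts. Levels are given in CPM, the reads of a gene per 1000000 reads of its library after scaling for library composition, and a library without a read for a gene still allows up to 3 reads, or 0.0353 to 0.0505 CPM. This floor covers counting error only. In all 6 libraries the Y-linked transcripts Ddx3y (48.0 to 58.4 CPM in control and 45.9 to 47.8 CPM in DKD kidneys) and Uty were present, and Xist, the transcript of the inactive X chromosome, was at or under 0.545 CPM.

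Conjugation makes lipophilic compounds soluble and ready for export. GSTs join electrophiles to glutathione and also reduce lipid peroxides, UGTs attach a sugar (glucuronic acid for most UGT1 and UGT2 enzymes) and SULTs transfer sulfate from the donor PAPS to phenols, steroids and amines. In the kidney many of these enzymes are strongest in the proximal tubule, which also takes up organic anions from blood and exports conjugates to urine. In mice many of them are shared with the liver, and several differ between the sexes.

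Per kilobase of transcript, the member with the highest level in control kidneys was Ugt2b38 at 685 CPM per kb, beside Ugt3a2 at 682, Gstm1 at 394, Sult1d1 at 355, Ugt1a7c at 283 and Gstz1 at 251. Per kb, the first pair overlapped between the control libraries, at 742, 690.1 and 624 CPM per kb for Ugt2b38 and 760.4, 619 and 667 for Ugt3a2. In DKD kidneys the same scale gave 477 CPM per kb for Ugt3a2, 454 for Gstm1, 405 for Ugt2b38 and 250.1 for Sult1d1.

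The summed level of the 18 UGT genes was 5104, 4565 and 4612 CPM in control replicates 1 to 3 and 4278, 2999.8 and 2998 CPM in DKD replicates 1 to 3. For the 9 SULT genes it was 942, 1067 and 952 CPM in control and 772, 652 and 683 CPM in DKD kidneys. All 3 DKD libraries were below all 3 control libraries in both sums. The 21 GST genes summed to 1926, 1822 and 1732 CPM in control and 1811, 1898 and 1917 CPM in DKD kidneys, and these ranges overlap. The 3 MGST genes summed to 149, 106 and 116 CPM in control and 149.9, 172 and 185 CPM in DKD kidneys, higher in every DKD library than in every control library, though DKD replicate 1 lay only just above control replicate 1. A sum follows its most abundant genes, so the gene by gene comparison below differs from it.

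**Figure D1:**
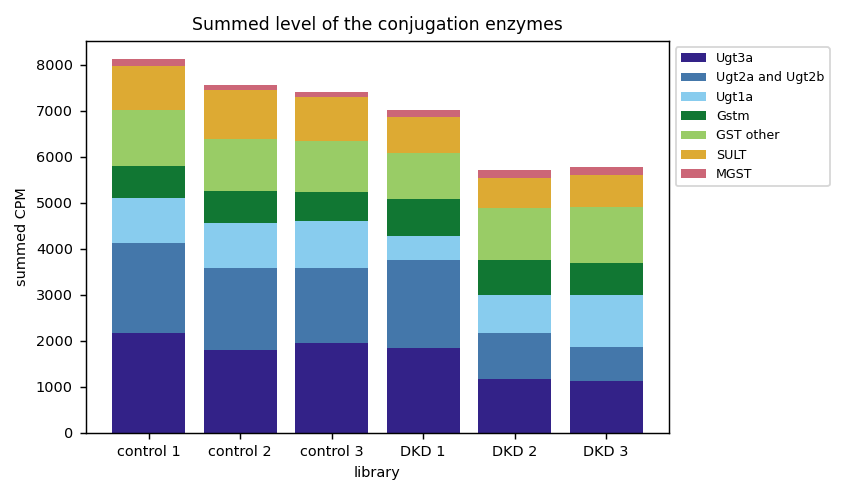
Summed CPM of the conjugation enzymes (y axis) in each of the 6 libraries (x axis), stacked by group of genes, where "GST other" holds all GST classes but mu. The total ran from 7412 to 8122 CPM in control kidneys, was 7010.1 CPM in DKD replicate 1 and 5721 and 5783 CPM in DKD replicates 2 and 3, and the UGT2, UGT3 and SULT blocks are shorter in the last 2 bars than in every control bar.

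The comparison of the 2 groups asks how transcript levels in DKD depart from control, and edgeR's quasi-likelihood test on all 6 libraries was used for it. Of the conjugation enzymes, 0 of the 47 members that passed the low count filter were called at an adjusted p of 0.05, as were 0 of the 19197 genes tested (0%). The smallest adjusted p of a member was 0.103. At an unadjusted p under 0.05 there were 13 members higher and 10 lower in DKD (27.7% and 21.3% of 47), beside 12.2% and 7.05% of all genes tested. The 13 include Ugt2b35, which had no read in control libraries and passed the filter only through the DKD libraries, so it adds no support. Mgst2 and Ugt1a9, with few control reads, are among them too. Their control libraries alone would not have met the low count filter, so they add no support either. With a minimum of 1 CPM in 3 libraries, 10 were higher and 10 lower. Groups were fully apart in CPM for 11 members on the higher and 10 on the lower side, beside 13.7% and 11.7% of all genes tested. Other tools did call members: DESeq2 called 15 (10 higher, 5 lower, beside 6.22% and 2.89% of all genes) and limma-voom with sample quality weights called 17 (8 higher, 9 lower, beside 9.94% and 7.75%). Ugt2b35 is also among the 11 members fully apart and the 8 called higher by limma-voom. Ugt1a9 is among the 11 members fully apart and the 10 called higher by DESeq2.

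DKD replicate 1 stood apart from the other DKD libraries, and the count rests on it. Without it, the fit held the 3 control libraries and DKD replicates 2 and 3 only. It was singled out with earlier results of these data known. Leaving out the library that stood apart can lower the spread within DKD, and with it the adjusted p-values. In that fit edgeR called 20 of 47 members, 9 higher and 11 lower in DKD, beside 9.67% and 5.84% of the 19989 genes tested. The 9 were Gsta4, Gstm2, Gstm3, Mgst1, Sult1a1, Ugt1a6a, Ugt1a9, Ugt1a10 and Ugt2b35. Of these, Ugt2b35 had no read in any control library and Ugt1a9 had 13, 5 and 11, so Ugt2b35 passed the low count filter only through the DKD libraries and its call says no more than that. The 11 were Gstk1, Gstt1, Gstz1, Sult1c2, Sult1d1, Ugt1a7c, Ugt2a3, Ugt2b5, Ugt2b38, Ugt3a1 and Ugt3a2. Of these 20, 10 were also called both by DESeq2 and by weighted limma-voom on all 6 libraries, which reuse the same libraries. The median log2 difference (DKD minus control, all 6 libraries) was 0.06 over the GST, 0.85 over the MGST, 0.82 over the UGT and 0.15 over the SULT genes tested, where the median of all genes tested was 0.02. The UGT median turned to -0.41 with near-identical genes summed and DKD replicate 1 left out. The SULT median turned to -0.16 without DKD replicate 3, -0.06 without control replicate 1, -0.19 with a minimum of 1 CPM in 3 libraries and -0.61 with a minimum of 600 reads.

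**Figure D2:**
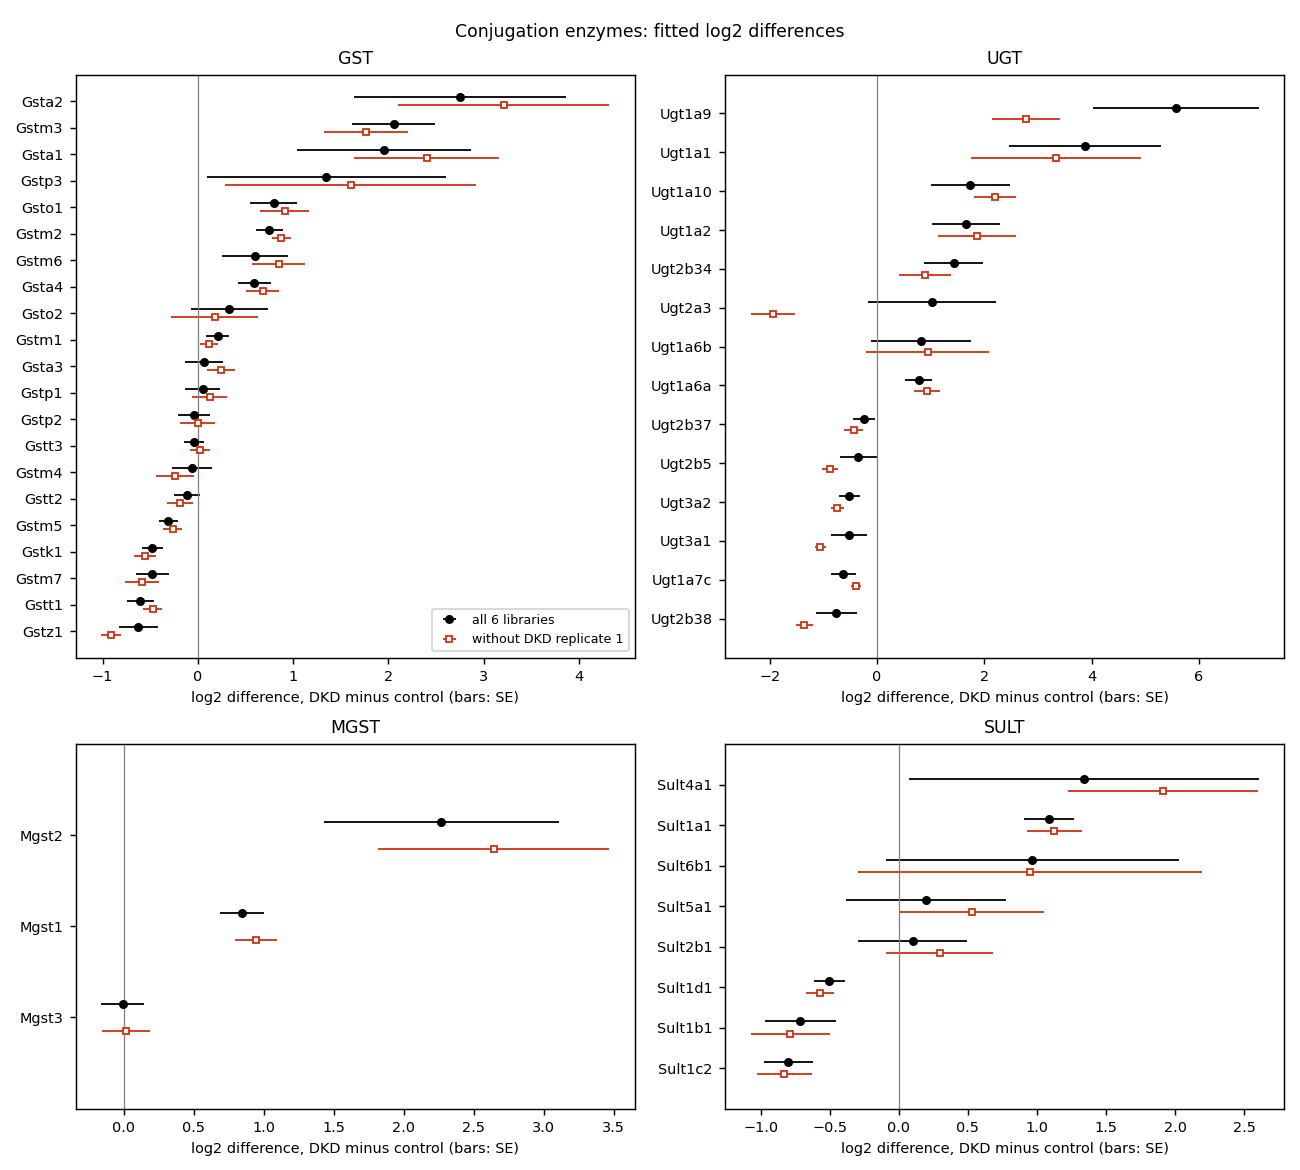
Fitted log2 difference of DKD minus control (x axis; bars are SE) for each tested member with reads in control kidneys (y axis), with all 6 libraries (black circles) and without DKD replicate 1 (red open squares). Near-zero members such as Gstp2 and Mgst3 stay near 0, while Ugt2a3 moves from 1.02 ± 1.20 to -1.94 ± 0.41 and Ugt1a9 from 5.58 ± 1.54 to 2.78 ± 0.63.

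DKD replicate 1 was the library with transcripts of the liver type. Of 28 hepatocyte genes, 27 had their highest level there, and the list summed to 5950.4 CPM beside 474 to 828 CPM in the other libraries. Alb, albumin, reached 2315 CPM in that library against 7.19 to 14.7 CPM elsewhere, and the plasma protein gene Ahsg reached 375 CPM against 0 in the others. In 3 members there were reads in DKD replicate 1 alone and they did not pass the low count filter. These were Sult2a8, a bile acid sulfotransferase of mouse liver, with 2356 reads (30.9 CPM), Ugt2b1 with 1971 reads (25.8 CPM) and Ugt2b36 with 1255 reads (16.4 CPM). Against a floor of 3 reads in each other library they were at least 611-fold, 511-fold and 326-fold higher there. The other untested member, Ugt1a5, had 901 reads in DKD replicate 1 (11.8 CPM), 4 in control replicate 2 and none in the rest. The part of these hepatocyte transcripts in the differences of other members was not tested.

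Several members with a large fitted difference had their highest level in the same library. Ugt1a9 was at 0.219, 0.0757 and 0.155 CPM in control and at 19.5, 0.623 and 1.46 CPM in DKD kidneys, so that DKD replicates 2 and 3 were also above every control library, but by far less than DKD replicate 1. Ugt2b35 had no read in any control library and was at 5.33, 0.337 and 0.495 CPM in the DKD libraries. Its DKD mean was at least 44.6-fold higher than the floor of 3 reads per control library, and the mean of DKD replicates 2 and 3 at least 9.03-fold. Ugt2a3 was at 1.31, 1.14 and 1.78 CPM in control and at 7.86, 0.441 and 0.294 CPM in DKD kidneys. Its log2 difference turned from 1.02 ± 1.20 (± SE; adjusted p = 0.670 with edgeR) to -1.94 ± 0.41 (adjusted p = 0.0231) when DKD replicate 1 was left out. The other DKD libraries lay below all controls. Ugt2b34 was at 12.2, 5.09 and 5.02 CPM in control and 32.1, 9.08 and 18.8 CPM in DKD kidneys, and its log2 difference of 1.43 ± 0.55 was 0.90 ± 0.49 without DKD replicate 1 (adjusted p = 0.234 and 0.270 with edgeR).

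**Figure D3:**
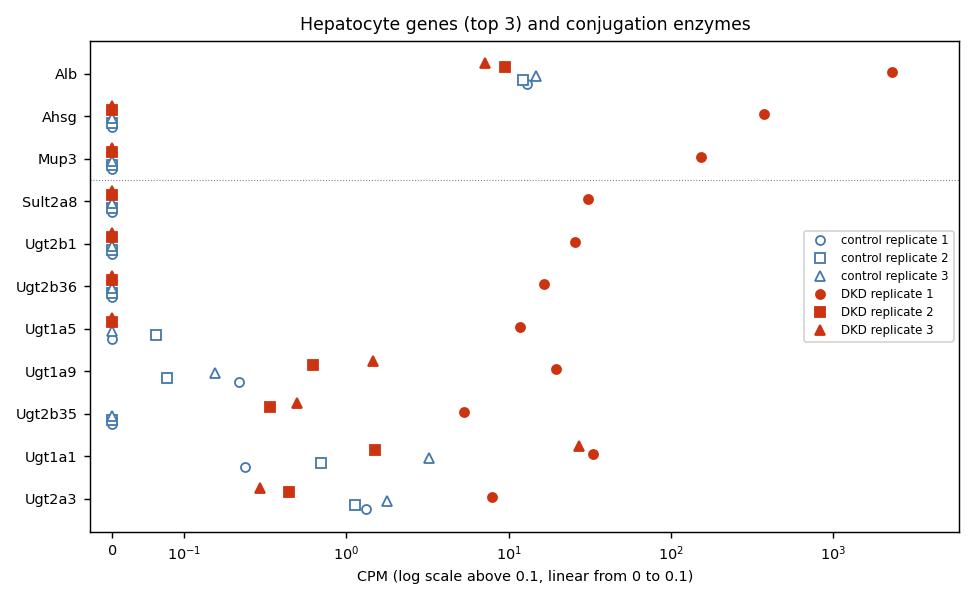
CPM in each library (x axis, logarithmic above 0.1 and linear from 0 to 0.1) of 3 hepatocyte genes and 8 conjugation enzymes (y axis); open blue symbols are control libraries, filled red symbols DKD libraries, and the red circle is DKD replicate 1. For Sult2a8, Ugt2b1 and Ugt2b36 the circle stands alone and the 5 other libraries are at 0, as they are for Ahsg and Mup3.

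Among the sulfotransferases, the most abundant renal members were lower in every DKD library, DKD replicate 1 included. Sult1d1, a phenol and catecholamine sulfotransferase, was at 843, 923 and 809 CPM in control and 654, 573 and 589 CPM in DKD kidneys. The groups do not overlap, and the log2 difference was -0.50 ± 0.12 (± SE here and below; adjusted p = 0.116 with edgeR), and -0.57 ± 0.10 without DKD replicate 1 (adjusted p = 0.0134). Sult1c2, of the 1C subfamily, was at 82.8, 127 and 129 CPM in control and 66.7, 60.0 and 68.2 CPM in DKD kidneys. Control replicate 1 was the lowest control and still above all DKD libraries. The log2 difference of Sult1c2 was -0.80 ± 0.18 (adjusted p = 0.113), against -0.83 ± 0.20 without DKD replicate 1 (adjusted p = 0.0355, both with edgeR). Sult1b1, which acts on phenols and thyroid hormones, was at 6.98, 6.94 and 4.09 CPM in control and 3.97, 3.22 and 3.78 CPM in DKD kidneys, with control replicate 3 close to the DKD libraries (log2 difference -0.71 ± 0.26; adjusted p = 0.204 with edgeR).

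One sulfotransferase went the other way. Sult1a1, the general phenol sulfotransferase, was at 7.74, 7.42 and 6.44 CPM in control and 14.2, 12.9 and 18.7 CPM in DKD kidneys. All DKD libraries lay above all controls, and the log2 difference was 1.09 ± 0.18 (adjusted p = 0.103 with edgeR) on all libraries and 1.13 ± 0.20 without DKD replicate 1 (adjusted p = 0.0126). Sult1a1 had a low level beside Sult1d1, at 5.59 against 355 CPM per kb in control kidneys. Sult2b1, Sult4a1, Sult5a1 and Sult6b1 were at 1.40 CPM or less in every control library and at 1.79 CPM or less in every DKD library. Their groups overlapped.

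**Figure D4:**
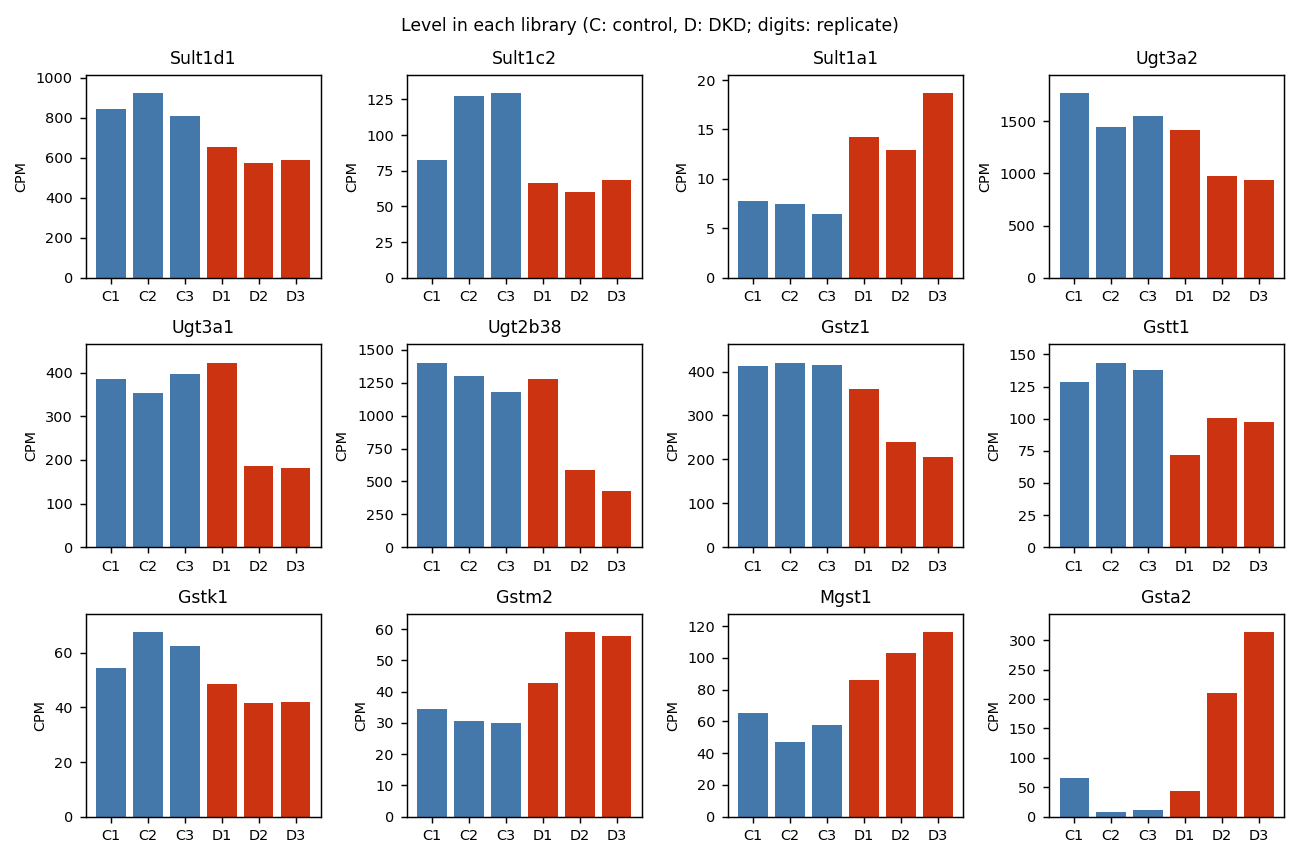
CPM (y axis, from 0) of 12 conjugation enzymes in the 3 control (C1 to C3, blue) and 3 DKD libraries (D1 to D3, red). Sult1d1, Sult1c2, Gstt1 and Gstk1 are lower in all 3 red bars, Ugt3a1 and Ugt2b38 only in the last 2 of them, and Sult1a1, Gstm2 and Mgst1 are higher in all 3.

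The abundant UGT2 and UGT3 genes were lower in DKD replicates 2 and 3 but not, or less so, in DKD replicate 1. Ugt2b38, a UGT2B enzyme, was at 1404, 1305 and 1179 CPM in control and 1279.9, 586 and 430.4 CPM in DKD kidneys. DKD replicate 1 lay inside the controls, and the log2 difference of -0.76 ± 0.39 (adjusted p = 0.328 with edgeR) was -1.36 ± 0.16 without it (adjusted p = 0.00374). Its near copy Ugt2b5 was at 83.1, 71.6 and 68.3 CPM in control and 93.8, 46.2 and 35.1 CPM in DKD kidneys, with the same order of libraries within the DKD group. Ugt2b37, a further near copy, was at 459, 413 and 387 CPM in control and 443, 369.9 and 253 CPM in DKD kidneys (log2 difference -0.24 ± 0.21, and -0.44 ± 0.17 without DKD replicate 1; adjusted p = 0.552 and 0.131 with edgeR).

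UGT3 enzymes are unusual in that they use sugars other than glucuronic acid. Ugt3a1 was at 385, 354 and 397 CPM in control and 423, 185 and 181 CPM in DKD kidneys, so that DKD replicate 1 had the highest level of all libraries while DKD replicates 2 and 3 were the lowest. Its log2 difference was -0.52 ± 0.33 (adjusted p = 0.421 with edgeR), and -1.06 ± 0.10 without DKD replicate 1 (adjusted p = 0.00207). Ugt3a2 was at 1771, 1442 and 1553 CPM in control and 1420.3, 971 and 939 CPM in DKD kidneys, and here DKD replicate 1 was just below the lowest control. The log2 difference of Ugt3a2 was -0.52 ± 0.19 (adjusted p = 0.213 with edgeR), and -0.74 ± 0.12 without DKD replicate 1 (adjusted p = 0.00980).

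Near-identical genes limit how far single members can be told apart. The coding sequences of Ugt2b38 and Ugt2b5 were 97.0% identical, and 37.2% of the 60-base windows of Ugt2b5 also occur in Ugt2b38. Gsta1 and Gsta2 were 98.0% identical and Gstp1 and Gstp2 98.1%. The stretch of 120 coding bases with the most differences in each of the first 2 pairs is shown to make plain how few bases separate them, with the differing bases in capitals. The sequences are those of the GENCODE M21 transcripts (build GRCm38). In the first pair 13 of 120 bases differ (coding bases 1392 to 1511), and in the second 5 of 120 (coding bases 373 to 492).
Ugt2b38: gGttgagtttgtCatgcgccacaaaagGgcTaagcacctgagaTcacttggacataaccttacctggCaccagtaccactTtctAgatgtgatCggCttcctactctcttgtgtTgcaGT
Ugt2b5: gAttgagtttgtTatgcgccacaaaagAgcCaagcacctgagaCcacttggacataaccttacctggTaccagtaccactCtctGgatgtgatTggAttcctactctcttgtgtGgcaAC
Gsta1: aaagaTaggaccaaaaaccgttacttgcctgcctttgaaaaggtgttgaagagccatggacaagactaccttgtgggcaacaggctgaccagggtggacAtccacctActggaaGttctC
Gsta2: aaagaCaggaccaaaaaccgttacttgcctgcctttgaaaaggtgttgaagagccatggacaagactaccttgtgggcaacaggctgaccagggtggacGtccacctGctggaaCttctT

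With the reads of such genes summed before the test, a choice made after seeing the data, Ugt2b5, Ugt2b37 and Ugt2b38 together were at 1945, 1789 and 1635 CPM in control and 1817, 1002 and 718 CPM in DKD kidneys. The log2 difference of this sum was -0.60 ± 0.32 (adjusted p = 0.346) with edgeR, and -1.07 ± 0.16 (adjusted p = 0.00870) without DKD replicate 1. Ugt3a1 and Ugt3a2, 93.2% identical, gave -0.52 ± 0.21 (adjusted p = 0.250) as a sum, against -0.80 ± 0.11 (adjusted p = 0.00693) without DKD replicate 1. Without DKD replicate 1 both sums thus fell, whichever of the copies each read was counted for.

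The UGT1 enzymes come from one locus in which each gene has its own first exon and all share the last exons, so that 40.8% to 94.5% of the bases of each Ugt1a member's transcript are exonic in another member too. How the counting divided reads in the shared exons is not given, and values of single Ugt1a genes are uncertain. Ugt1a7c carried most of the locus, at 923, 894 and 922 CPM in control and 372, 675 and 726 CPM in DKD kidneys. It was lower in every DKD library, and lowest in DKD replicate 1 (log2 difference -0.63 ± 0.24; adjusted p = 0.225 with edgeR), while without that library the difference was -0.39 ± 0.09 (adjusted p = 0.0336). Ugt1a10 was at 36.2, 33.1 and 42.1 CPM in control and 29.2, 93.8 and 248 CPM in DKD kidneys. DKD replicate 1 was below all controls and DKD replicates 2 and 3 were above them. The log2 difference of Ugt1a10 was 1.74 ± 0.73 (adjusted p = 0.274 with edgeR), 2.19 ± 0.39 without DKD replicate 1 (adjusted p = 0.0194) and 0.73 without DKD replicate 3.

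Ugt1a1, the enzyme that glucuronidates bilirubin, was at 0.236, 0.697 and 3.23 CPM in control and 33.1, 1.5 and 26.9 CPM in DKD kidneys. DKD replicates 1 and 3 were high and DKD replicate 2 lay within the controls (log2 difference 3.88 ± 1.42; adjusted p = 0.229 with edgeR). Ugt1a2 was at 4.42, 14.95 and 10.1 CPM in control and 21.4, 14.97 and 56.8 CPM in DKD kidneys, where the groups only just fail to overlap and DKD replicate 3 was far the highest (log2 difference 1.66 ± 0.64, and 0.89 without DKD replicate 3). Ugt1a6a, named after its values were seen, was at 22.1, 29.1 and 23.8 CPM in control and 32.3, 34.5 and 61.4 CPM in DKD kidneys (log2 difference 0.78 ± 0.26; adjusted p = 0.185 with edgeR, and 0.0414 without DKD replicate 1). Its near-identical neighbour Ugt1a6b was at 2.32, 1.97 and 19.1 CPM in control and 11.1, 10.6 and 19.7 CPM in DKD kidneys, where control replicate 3 stood with the DKD libraries. The locus as a whole summed to 989, 974 and 1020.5 CPM in control and 530.1, 831 and 1140.3 CPM in DKD kidneys. That sum overlaps between the groups, with DKD replicate 1 lowest and DKD replicate 3 highest, and its log2 difference was -0.25 ± 0.26 (adjusted p = 0.616) with edgeR. Without DKD replicate 1 the locus sum differed by -0.02 ± 0.14 (adjusted p = 0.943 with edgeR). In that same setting Ugt1a7c was called lower, and Ugt1a6a, Ugt1a9 and Ugt1a10 higher.

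**Figure D5:**
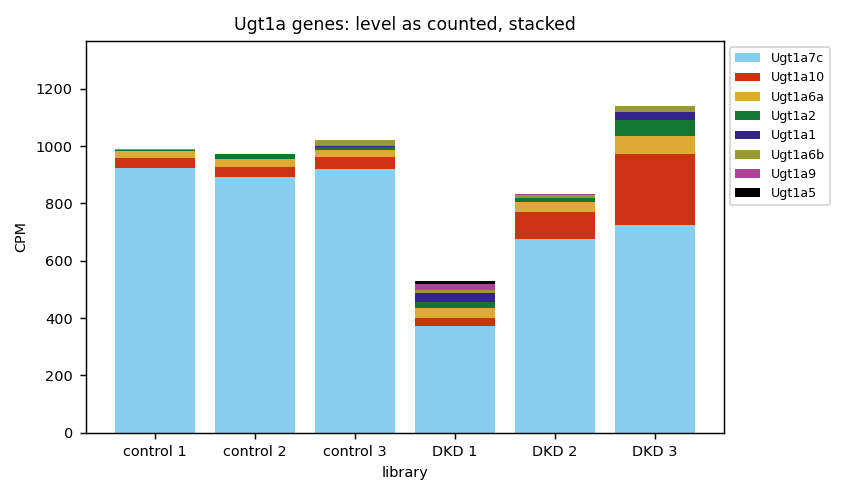
CPM of the 8 Ugt1a members (y axis, stacked) in each library (x axis), as the deposited counts divide them. Control bars are nearly all Ugt1a7c and end between 974 and 1020.5 CPM, while the DKD bars end at 530.1, 831 and 1140.3 CPM and carry more of the other genes.

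An HNF1 motif close before the start was found in Ugt1a1, Ugt1a9, Ugt1a10 and Sult1d1. HNF1 factors are homeodomain proteins of liver and proximal tubule. The letters searched were GTTAATNAT, the longer part of the HNF1 consensus, on either strand (ATNATTAAC on the reverse) in the 250 bases before each RefSeq start. A match was present in 4 of 58 windows of the 46 members with an entry (6.90%) and in 242 of 32851 windows of all genes (0.737%). Ugt1a1, Ugt1a9 and Ugt1a10 are of the same locus, and the coding sequences of Ugt1a9 and Ugt1a10 are 95.6% identical. Their matches are therefore not separate observations. Sult1d1 was lower than every control in all 3 DKD libraries and Ugt1a9 higher, while Ugt1a10 was below every control in DKD replicate 1 and above in the others, and Ugt1a1 lay within the controls in DKD replicate 2. The stretches from base -150 to base -31 before the start are shown in gene orientation (RefSeq, build GRCm38.p6), with the match in capitals, because they let the 4 genes be compared at the same distance. They lie at chr1:88055261-88055380, plus strand (Ugt1a10), at chr1:88070629-88070748, plus strand (Ugt1a9), at chr1:88211809-88211928, plus strand (Ugt1a1) and at chr5:87569037-87569156, minus strand (Sult1d1).
Ugt1a10: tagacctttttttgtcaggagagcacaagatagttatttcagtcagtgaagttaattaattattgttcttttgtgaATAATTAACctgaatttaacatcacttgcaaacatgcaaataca
Ugt1a9: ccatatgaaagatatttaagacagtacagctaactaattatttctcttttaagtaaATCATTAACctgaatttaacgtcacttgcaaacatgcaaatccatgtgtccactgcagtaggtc
Ugt1a1: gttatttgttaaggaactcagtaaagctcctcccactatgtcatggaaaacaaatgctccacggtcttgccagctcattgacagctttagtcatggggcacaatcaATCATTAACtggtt
Sult1d1: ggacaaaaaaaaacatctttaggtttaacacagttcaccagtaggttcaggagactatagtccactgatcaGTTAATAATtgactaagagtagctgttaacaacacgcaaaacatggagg

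Among the glutathione transferases, the zeta, kappa and theta classes each held a member that was lower in every DKD library. Gstz1, the zeta enzyme, which is also the maleylacetoacetate isomerase of tyrosine breakdown, was at 412, 421 and 414 CPM in control and 361, 240.2 and 205 CPM in DKD kidneys. The controls were close together and all DKD libraries lay below them, DKD replicate 1 by the least. The log2 difference was -0.63 ± 0.21 (adjusted p = 0.183 with edgeR), and -0.91 ± 0.11 without DKD replicate 1 (adjusted p = 0.00373). Gstt1, a theta enzyme, was at 128, 144 and 138 CPM in control and 71.4, 100.3 and 97.6 CPM in DKD kidneys, here with DKD replicate 1 the lowest (log2 difference -0.61 ± 0.14, and -0.48 ± 0.10 without that library; adjusted p = 0.120 and 0.0201 with edgeR). Gstk1, the kappa enzyme of mitochondria and peroxisomes, was at 54.4, 67.5 and 62.4 CPM in control and 48.4, 41.7 and 42.1 CPM in DKD kidneys (log2 difference -0.48 ± 0.11, and -0.56 ± 0.12 without DKD replicate 1; adjusted p = 0.121 and 0.0217 with edgeR). The other theta genes did not separate: Gstt2 was at 202, 172 and 158 CPM in control and 179, 169.8 and 143 CPM in DKD kidneys, and Gstt3 differed by -0.04 ± 0.11 on the log2 scale.

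Mu class genes were divided. Gstm2 was at 34.5, 30.5 and 30.0 CPM in control and 42.6, 59.0 and 57.7 CPM in DKD kidneys, above the controls in each DKD library (log2 difference 0.75 ± 0.14, and 0.87 ± 0.10 without DKD replicate 1; adjusted p = 0.103 and 0.00366 with edgeR). Gstm3, at low level, was at 0.353, 0.394 and 0.804 CPM in control and 2.91, 1.56 and 2.00 CPM in DKD kidneys (log2 difference 2.05 ± 0.44; adjusted p = 0.111, and 0.0385 without DKD replicate 1, with edgeR). Gstm1, the most abundant GST, was at 525, 521 and 476 CPM in control and 647, 575 and 532 CPM in DKD kidneys. Its DKD libraries were all above the controls, but DKD replicate 3 by little, and the log2 difference was 0.21 ± 0.12 (adjusted p = 0.376 with edgeR). Gstm1 and Gstm3 are 89.4% identical in coding sequence. Gstm5 and Gstm7 were lower in each DKD library than in every control, with log2 differences of -0.31 ± 0.10 and -0.48 ± 0.17 (adjusted p = 0.174 and 0.205 with edgeR). Gstm4 and Gstm6 overlapped between the groups.

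The alpha class, which reduces lipid hydroperoxides, held the GST gene with the largest fitted difference, Gsta2, whose libraries also differed widely within each group. Gsta2 was at 65.5, 8.16 and 10.7 CPM in control and 44.6, 209 and 314 CPM in DKD kidneys. Control replicate 1 was well above the other controls, DKD replicate 1 lay below it, and DKD replicates 2 and 3 were above all other libraries. The log2 difference was 2.75 ± 1.11 (adjusted p = 0.261 with edgeR), and 4.33 without control replicate 1. Gsta1 followed at a lower level, with 1.83, 0.242 and 1.48 CPM in control and 1.15, 3.76 and 8.83 CPM in DKD kidneys, and 1.05 on the log2 scale without DKD replicate 3 in place of 1.95 ± 0.91. The sum of this near-identical pair differed by 2.73 ± 1.10 (adjusted p = 0.261) with edgeR. Gsta4, which clears the lipid aldehyde 4-hydroxynonenal and is named after its values were seen, was at 15.9, 12.2 and 18.3 CPM in control and 20.1, 25.5 and 24.4 CPM in DKD kidneys (log2 difference 0.59 ± 0.17; adjusted p = 0.156, and 0.0411 without DKD replicate 1, with edgeR). Gsta3, the alpha gene with the most reads in control kidneys, differed by 0.06 ± 0.20.

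Mgst1, a membrane-bound enzyme of the endoplasmic reticulum and mitochondria, was at 65.3, 46.8 and 58.0 CPM in control and 86.3, 103 and 116 CPM in DKD kidneys. Every DKD library lay above every control, and the log2 difference was 0.85 ± 0.16 (adjusted p = 0.103 with edgeR), and 0.94 ± 0.15 without DKD replicate 1 (adjusted p = 0.00989). Mgst3 was at 84.0, 59.4 and 57.9 CPM in control and 63.5, 68.1 and 68.3 CPM in DKD kidneys, which overlap. Mgst2 stayed under 1 CPM in all libraries, at 0.0505, 0.0303 and 0.169 CPM in control and 0.157, 0.597 and 0.483 CPM in DKD kidneys. Gsto1, an omega enzyme that reduces dehydroascorbate and is named after its values were seen, was at 32.6, 20.6 and 17.6 CPM in control and 33.4, 40.3 and 48.9 CPM in DKD kidneys, with DKD replicate 1 only just above control replicate 1 (log2 difference 0.79 ± 0.25; adjusted p = 0.174 with edgeR). The pi pair did not separate, with 174, 122 and 115 CPM in control and 125, 144 and 152 CPM in DKD kidneys for Gstp1 and Gstp2 together. Gstp3 and Gsto2, both near 1 CPM or below, overlapped between the groups as well, with Gstp3 at 0.0673, 0.712 and 0 CPM in control and 0.393, 0.830 and 0.765 CPM in DKD kidneys.

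Antioxidant response elements, the sites through which NRF2 acts on many GST genes, were searched in the same windows as TGACNNNGC on either strand. A match was present before Gsta3, Gstm5, Gstm7 and Mgst1, in 4 of 58 member windows (6.90%), beside 10.2% of all windows. Sites further than 250 bases before a start were not searched. The Gstm7 match lies downstream of another RefSeq start of that gene. Of these 4 genes, Mgst1 was higher, Gstm5 and Gstm7 were lower, and Gsta3 overlapped between the groups. The xenobiotic response element TNGCGTG was present before Gsta2, Sult1d1 and Ugt1a5, in 3 of 58 member windows (5.17%), beside 4.10% of all windows.

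The genes that supply the donors and carry the conjugates further were read from lists. The counts below stand beside 12.2% higher and 7.05% lower of all genes at an unadjusted p under 0.05, and beside 9.67% and 5.84% called by edgeR without DKD replicate 1. Of 9 genes of glucuronic acid supply and use, 1 was higher and 5 were lower at an unadjusted p under 0.05, and without DKD replicate 1 edgeR called 1 higher and 6 lower. Ugp2, which makes UDP-glucose, was at 223, 251 and 248 CPM in control and 189, 145 and 163 CPM in DKD kidneys (log2 difference -0.54 ± 0.13; adjusted p = 0.119 with edgeR). Akr1a1, an aldehyde reductase that acts on glucuronate, was at 2083, 1909 and 1961 CPM in control and 1476, 1356 and 1389 CPM in DKD kidneys. Gulo, the last enzyme of vitamin C synthesis and a liver gene in mice, was at 0.0673, 0.0606 and 0.113 CPM in control and 12.1, 3.22 and 2.21 CPM in DKD kidneys, so that it was higher in all DKD libraries and highest in the one with hepatocyte transcripts.

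For sulfate supply, 10 of 12 listed genes were found, and 0 were higher and 1 lower at an unadjusted p under 0.05. Without DKD replicate 1 edgeR called 0 higher and 3 lower. Papss2, which makes PAPS, was at 291, 438 and 503 CPM in control and 378, 227 and 226 CPM in DKD kidneys, which overlap, as control replicate 1 lay below DKD replicate 1. Bpnt1, which breaks down the spent donor, was at 356, 313 and 304 CPM in control and 278, 198 and 197 CPM in DKD kidneys (log2 difference -0.53 ± 0.16; adjusted p = 0.165 with edgeR). Suox, sulfite oxidase, was at 125, 96.0 and 97.9 CPM in control and 90.5, 93.0 and 82.5 CPM in DKD kidneys. Of 11 genes of glutathione supply, 0 were higher and 0 lower at an unadjusted p under 0.05. Gsr, glutathione reductase, was at 146, 162 and 187 CPM in control and 139, 134 and 138 CPM in DKD kidneys, and the peroxidase gene Gpx1 at 1815, 1400.3 and 1427 and 1185, 1293 and 1317 CPM. Both were lower in all DKD libraries, by log2 differences of -0.27 ± 0.11 and -0.29 ± 0.14 (adjusted p = 0.260 and 0.308 with edgeR). Slc7a11, which imports cystine for glutathione synthesis, overlapped at 1.04 CPM or less.

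Of 12 genes of mercapturate formation and glutathione breakdown, 1 was higher and 2 lower at an unadjusted p under 0.05, and without DKD replicate 1 edgeR called 2 higher and 6 lower. The higher count on all libraries is not above the share of all genes. Nat8, which acetylates cysteine conjugates in the proximal tubule, was at 283, 230.4 and 214 CPM in control and 171, 152 and 133 CPM in DKD kidneys. Aspa, an acylase of the same list, was at 148, 146 and 129 CPM in control and 118.6, 99.99 and 83.0 CPM in DKD kidneys. Abcc1, an exporter of glutathione conjugates, was at 18.6, 21.8 and 22.6 CPM in control and 27.1, 33.1 and 32.7 CPM in DKD kidneys, so that Nat8 and Aspa lay below and Abcc1 above the controls in every DKD library. Among 17 tested genes of other conjugation and hydrolysis, 2 were higher and 6 lower at an unadjusted p under 0.05. Ephx2, soluble epoxide hydrolase, was at 575, 586 and 502 CPM in control and 435, 396 and 361 CPM in DKD kidneys. Glyat, which joins glycine to benzoate, was at 644, 664 and 623 CPM in control and 475, 457 and 425 CPM in DKD kidneys, and Nnmt, which methylates nicotinamide, was at 0.757, 0.409 and 0.310 CPM in control and 1.43, 1.93 and 1.98 CPM in DKD kidneys. With DKD replicate 1 left out, 2 of the list were called higher and 7 lower.

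Of 17 tested receptors and regulators, 2 were higher and 4 lower at an unadjusted p under 0.05, and the higher share is near that of all genes. Hnf4a, a nuclear receptor that drives liver and proximal tubule genes, was at 914, 953 and 863 CPM in control and 665, 529 and 538 CPM in DKD kidneys (log2 difference -0.66 ± 0.13; adjusted p = 0.104 with edgeR). Ahr, the receptor that acts through xenobiotic response elements, was at 5.23, 6.66 and 6.25 CPM in control and 9.30, 10.9 and 9.27 CPM in DKD kidneys. Neither of these genes overlapped between the groups, and the adjusted p of Ahr was 0.119 with edgeR.

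Proximal tubule markers were lower in DKD, as was a group of the conjugation enzymes, among them Sult1d1, Ugt3a2 and Gstz1, while Mgst1, Gstm2 and Sult1a1 were higher. Of 18 proximal tubule markers, 0 were higher and 12 lower at an unadjusted p under 0.05, and the list summed to 56505, 48380.3 and 48645 CPM in control and 47087, 28235 and 23304 CPM in DKD kidneys. In whole kidney RNA, fewer cells of a type and less RNA per cell cannot be told apart. Of 9 genes known to be higher in male kidneys, 0 were higher and 5 lower at an unadjusted p under 0.05. Their sum was 37030.3, 29478 and 28282 CPM in control and 28847, 16101 and 10390.4 CPM in DKD kidneys, which placed DKD replicate 1 within the controls. Kap and Slc7a13 of this list are also proximal tubule markers here. Miox and Acsm2 of the pathway lists above are such markers too, and Acsm3 is in a pathway list and in the male list. The lists thus share transcripts and are not separate observations. Of 5 genes known to be higher in female kidneys, 2 were higher and 0 lower at an unadjusted p under 0.05, with a sum of 153, 87.4 and 143 CPM in control and 109, 582 and 967 CPM in DKD kidneys. That sum was highest in DKD replicates 2 and 3. Sums of other lists were 165 to 208 CPM in control and 263 to 348 CPM in DKD kidneys for podocytes, 81.5 to 93.1 and 103 to 131 for immune cells, 77.2 to 111 and 160.3 to 227 for fibroblasts and pericytes, and 0.863 to 6.98 and 11.6 to 63.7 for urothelium, all without overlap. Sums that overlapped were 6277 to 7163 CPM in control and 6831 to 7842 CPM in DKD kidneys for loop and distal tubule, 614 to 715 and 599.8 to 753 for collecting duct, 193 to 230.3 and 214 to 309 for endothelium, and 21.1 to 29.7 and 28.9 to 74.3 for adipocytes. Gene by gene the picture differed. At an unadjusted p under 0.05 with edgeR, 6 of 6 podocyte, 2 of 8 immune, 3 of 6 fibroblast and pericyte and 4 of 5 urothelium genes were higher. So were 3 of 7 loop and distal tubule, 1 of 8 collecting duct and 4 of 7 endothelium genes. In these lists 1 collecting duct gene was lower. Only 1 of the 8 immune genes did not overlap by itself. The part of any of these lists in the differences of the conjugation enzymes was not tested.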

How the data were processed

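Poly(A) RNA of whole kidneys, 3 control and 3 DKD libraries, was sequenced with a strand-marking protocol, per the labels' protocols. The authors deposited raw read counts per Ensembl gene ID, with no normalization. How the counting divided reads that fit several genes is not given in the sources used here. Read numbers and the floor of 3 reads take the counts as tallied reads. The submitters' processing notes name the tools HISAT2, fastp, edgeR and StringTie and the build GRCm39. Annotation, strand setting of the counting and versions: not given in the sources used here. Symbols were found for 55141 of 55401 IDs in a table of Ensembl IDs and symbols, and transcript lengths come from GENCODE M21.

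Counts were tested in R 4.3.3 with edgeR 4.0.16 (robust quasi-likelihood test, TMM factors, default low count filter, two-sided, Benjamini-Hochberg adjustment over 19197 genes, threshold 0.05). Standard errors derive from the test statistic. The test was checked on simulated counts. Alternatives were other scalings and filters, DESeq2 1.42.0, limma-voom (limma 3.58.1) with quality weights, a replicate block and leaving out each library.

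Members, lists and motifs were chosen with earlier results of these data known. Named were members called by edgeR with all libraries (none) or without DKD replicate 1 (the 15 of smallest p), the 10 largest differences in each direction at a mean of at least 1 CPM, the 3 most abundant of each family (MGST counted with GST), and up to 3 genes per pathway list by smallest p. Other named genes were chosen after their values were seen. A result that this rule would name is not reported here.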

Additional observations from a re-analysis of the deposited data

How the results depend on the processing

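The number of members called was 0 with edgeR under the other scalings and filters, against 15 with DESeq2 and 17 with weighted limma-voom, and leaving out 1 library gave 0 to 20, where only leaving out DKD replicate 1 gave calls. With near-identical genes summed and DKD replicate 1 left out, a setting chosen after seeing the data, 14 were called and the UGT median was -0.41. At an unadjusted p under 0.05, 6 to 15 members were lower and 9 to 15 higher with 1 library left out. Scaling by library size alone gave 6 lower, raised the median of all genes from 0.02 to 0.17 and the GST median to 0.23, and moved Gstt2 from -0.11 to 0.039. Weighted limma-voom gave a GST median of 0.17. The MGST median was 0.44 with a minimum of 1 CPM in 3 libraries and 0.42 with a member minimum of 600 reads, where the SULT median was -0.61. The UGT median was 1.43 without members at least 90% identical to another. With 1 library left out, the medians ran from 0.022 to 0.23 (GST), 0.72 to 0.96 (MGST), 0.47 to 1.21 (UGT) and -0.16 to 0.41 (SULT). Ugt2a3 was at -1.51 with weighted limma-voom, at -0.58 with a replicate block and between -1.94 and 1.56 with 1 library left out. Of 403 values of 27 named members under the alternatives, 355 kept direction and side of the threshold, 44 passed it and 4 reversed, those of Ugt2a3 and Gstt2; none could lose a call, as none was called with all libraries. The cause of these changes was not tested. Replicate numbers did not pair the libraries (correlations of same-numbered deviations 0.0336, 0.0227 and 0.0344), and the replicate block gave 0 calls, with 12 members higher and 10 lower at an unadjusted p under 0.05. The planned comparison of protein identity was not run, and coding sequences were used in its place.

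With 3 libraries a group and spreads such as those of Gsta2 and Ugt1a10, differences of single genes are imprecise. Levels under about 1 CPM, as for Mgst2, Gstp3 and Sult6b1, rest on few reads.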

Other observations

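Of the genes with a conjugation symbol under the read minimum, 4 had any read. Sult2a3, a hydroxysteroid sulfotransferase, had 3, 15 and 15 reads in control and 0, 14 and 5 reads in DKD replicates 1 to 3. Sult6b2 had 17, 11 and 6 reads in control and 0, 4 and 4 reads in DKD kidneys. Sult1e1, the estrogen sulfotransferase, had 4 reads, all in DKD replicate 1, and Ugt1a8 had 4 reads, all in DKD replicate 2. Sult2a3 and Sult6b2 were thus without a read in the library that held the hepatocyte transcripts, in which Sult2a8 had 2356.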
